A study of Mus musculus with 18 samples.

Results

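The immunoglobulin constant region genes Igkc, Ighm and Igh-1a, together with AU044919, were measured by 7 of the 46624 probes of the array, and all 7 passed the filter on detection that left 21434 probes. The probes were those that the study's own lists of AAA-associated transcripts pair with these 4 symbols, and every one of them is in the lists of transcripts that differed between aortas with and without an aneurysm on these same 18 arrays. Those lists took probes at 2-fold or more with an unadjusted p under 0.05. The differences of the 7 probes between AAA, no AAA and saline aortas are therefore a description of how they were chosen, and no test of them is given. Igkc was read by the probe labelled Ig kappa constant and by scl0016071.1_62-S, Ighm by the probe labelled Ig heavy constant mu and by scl016019.1_4-S, and Igh-1a by the probe labelled Ig heavy constant gamma 2C and by scl0380793.1_210-S. AU044919 was read by 1 probe, scl0380794.2_30-S. It carries no immunoglobulin label in the array table and has no entry in the RefSeq names used here (GRCm38.p6), so it is called by its symbol only.

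An antibody is built of heavy and light chains, each with a variable part that binds antigen and a constant part that is shared by all antibodies of a class. Igkc encodes the constant part of the kappa light chain, the light chain of most mouse antibodies, Ighm that of the mu heavy chain of IgM, and Igh-1a that of a gamma heavy chain of serum IgG2a. B lymphocytes carry IgM on their surface, and when they switch class the gene segments of a gamma chain take the place of mu. Plasma cells, the antibody-secreting descendants of B cells, devote much of their RNA to these transcripts. In an artery B lineage cells lie mainly in the adventitia and the surrounding fat, where aggregates of lymphocytes can form in ApoE-/- mice. Since each array holds RNA of a whole aorta, more cells of a type and more RNA per cell cannot be told apart.

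Each array held RNA of 1 male ApoE-/- mouse, deficient in apolipoprotein E, with no pooling, and each vessel was taken from the arch to the iliac bifurcation. The mice were 13 to 14 weeks old at the start. In the AAA group 5 mice received angiotensin II from an osmotic pump over 4 weeks, at a dose of 1.44 μg/kg/min, and developed an abdominal aortic aneurysm. In the no AAA group 7 mice received the same infusion and were aneurysm resistant, and in the saline group 6 mice received saline for the same time. AAA and no AAA mice differ by outcome and not by treatment, so that their comparison is not a randomised one.

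All values below are the log2 of the deposited average bead signal over the median signal of the array. That median was 108.1 to 142.6 signal units, and since 40.0 to 45.2% of the probes of an array were detected, a value of 0 lies near background. The arrays lay on 3 BeadChips of 6, with saline 1 to 6 on the first, no AAA 1 to 6 on the second, and AAA 1 to 5 with no AAA 7 on the third. Saline is therefore confounded with its BeadChip, and a difference from saline and a difference between BeadChips cannot be told apart. AAA against no AAA is nearly confounded too, since no AAA 7 alone shared a BeadChip with the AAA arrays. Arrays saline 1 and saline 2 stand apart from saline 3 to 6 in the genes described here, and results against saline are given with and without them.

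Igkc, the kappa light chain, was far brighter in AAA than in no AAA aortas. By the probe scl0016071.1_62-S it measured 6.25, 5.91, 8.60, 8.08 and 5.99 in AAA 1 to 5. In the no AAA arrays it ran from 2.21 (no AAA 7) through a median of 3.30 to 4.33 (no AAA 3), and in the saline arrays from 2.99 (saline 6) through a median of 4.88 to 8.76 (saline 2). Every AAA array lay above every no AAA array, AAA 3 and AAA 4 by the widest margin, whereas the saline arrays overlapped both other groups. Saline 2 was the brightest of all 18 arrays for Igkc, saline 1 (7.41) the fourth, behind AAA 3 and AAA 4, and no AAA 7 the dimmest. In signal units the extremes were 52452 in saline 2 and 564 in no AAA 7. The mean of AAA was 6.97 ± 1.27 (SD, n = 5), against 3.37 ± 0.75 in no AAA (n = 7) and 5.36 ± 2.33 in saline (n = 6). AAA minus no AAA was 3.59 (SE 0.81), or 12.1-fold. The probe labelled Ig kappa constant had a mean of 6.34 ± 1.39 in AAA arrays, 2.66 ± 0.82 in no AAA arrays and 4.75 ± 2.37 in saline arrays, and AAA minus no AAA was 3.68 (SE 0.84).

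Ighm, the heavy chain of IgM, showed the smallest differences of the 4 genes. By the probe scl016019.1_4-S it measured 4.46, 4.24, 4.97, 6.68 and 3.89 in AAA 1 to 5. The no AAA arrays lay between 2.09 (no AAA 7) and 3.49 (no AAA 2) with a median of 2.80, and the saline arrays between 2.36 (saline 5) and 7.27 (saline 2) with a median of 3.42. The AAA arrays were again all above the no AAA arrays, but here AAA 4 and not AAA 3 was the highest of its group. Saline 2 was the highest of the 18 arrays and saline 1 (5.42) the third. The means were 4.85 ± 1.1 in AAA arrays, 2.85 ± 0.45 in no AAA arrays and 4.06 ± 1.92 in saline arrays. AAA minus no AAA was 2.00 (SE 0.66), or 3.99-fold, and 1.70 (SE 0.66) by the probe labelled mu.

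Igh-1a, the gamma heavy chain, spread most widely of the 4 genes among the AAA and among the saline mice, though not among the no AAA mice. By the probe scl0380793.1_210-S it measured 4.09, 3.11, 7.43, 4.90 and 1.96 in AAA 1 to 5, a 44.4-fold range of signal within the group. The no AAA arrays lay between 0.10 (no AAA 1) and 0.80 (no AAA 3) with a median of 0.37, where 5 of 7 arrays detected the probe. The saline arrays lay between 0.19 (saline 6) and 6.82 (saline 2) with a median of 1.36. Saline 1 (6.76) and saline 2 formed a pair of their own, more than 5 log2 units above saline 3 (1.43), and only AAA 3 was brighter than both. All 5 AAA arrays lay above all 7 no AAA arrays, with AAA 5 nearest to them. The means were 4.30 ± 2.07 in AAA arrays, 0.37 ± 0.26 in no AAA arrays and 2.79 ± 3.14 in saline arrays, and AAA minus no AAA was 3.93 (SE 1.09), or 15.2-fold. It was 3.15 without AAA 3 and 4.51 without AAA 5. The probe labelled gamma 2C was detected in 5 of 5 AAA arrays, 0 of 7 no AAA arrays and 3 of 6 saline arrays. Its no AAA level is thus only a bound: against the lowest signal detected on each no AAA array, the AAA mean was at least 4.36-fold higher.

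AU044919 was detected in 5 of 5 AAA arrays, 0 of 7 no AAA arrays and 4 of 6 saline arrays. It measured 3.27, 2.94, 5.36, 4.57 and 3.10 in AAA 1 to 5. The no AAA arrays lay between -0.62 (no AAA 2) and -0.08 (no AAA 6) with a median of -0.22, all of them not detected. The saline arrays lay between -0.35 (saline 6) and 5.93 (saline 2) with a median of 0.42. Saline 2 stood alone here, for saline 1 measured 0.57 and saline 3, the next below saline 2, measured 0.92, both under the lowest AAA array. By the same bound the AAA mean was at least 12.8-fold higher than no AAA.

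**Figure D1:**
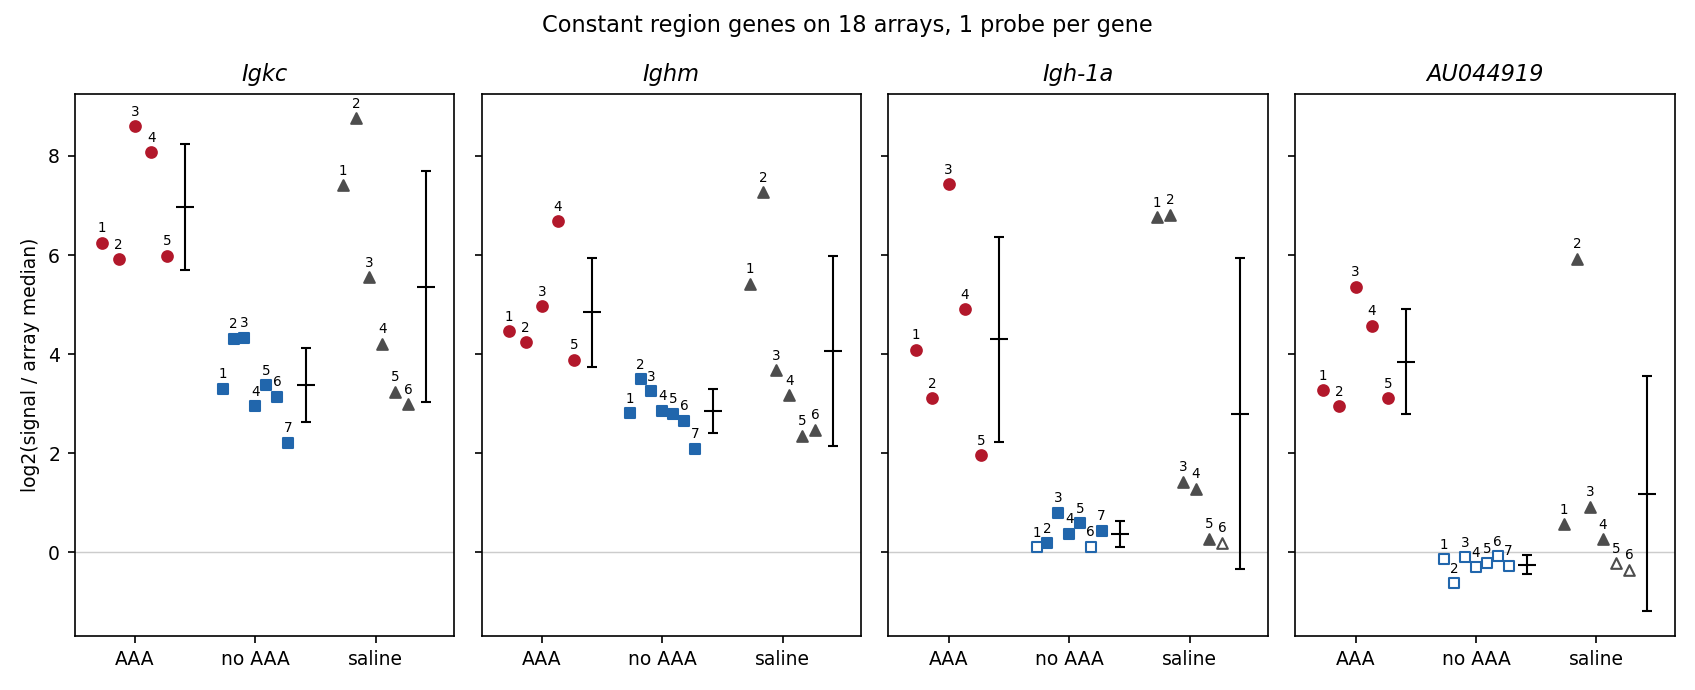
Level of Igkc, Ighm, Igh-1a and AU044919 in each aorta, as log2 of the signal over the array's median, by the brightest probe of each gene. Points are arrays with their replicate number (open where the probe was not detected), and bars give the mean ± SD. In all 4 panels the AAA arrays (n = 5) lie above the no AAA arrays (n = 7), while saline 2, and saline 1 except for AU044919, lie among or above the AAA arrays.

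For all 7 probes the order of the group means was AAA, saline, no AAA. AAA minus no AAA had a median over the 7 probes of 3.59, against -0.01 over all tested probes, and in 7 of 7 probes no array of the groups overlapped. Of all 21434 tested probes 3.98% had every AAA array above every no AAA array, and since the 7 were listed for this contrast nothing is read from that share. The smallest difference among them was the 3.26-fold of the Ighm probe labelled mu. Outside the lists lay the probes of the lambda light chain constants IGLC3 (2.45-fold) and IGLC2 (2.43-fold), though these differences are over 2-fold. The lists also required an unadjusted p under 0.05, so fold alone did not decide what they hold.

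Against saline the groups overlapped for all 7 probes. AAA minus saline had a median of 1.51 over the 7 probes, against 0.13 over all tested probes, and 0 of 7 probes had every AAA array above every saline array, where 16.2% of all tested probes did. No AAA minus saline had a median of -1.91, or -1.44 with the undetected probes at their bounds, against 0.15 over all tested probes. Here too 0 of 7 probes separated the groups, where 5.39% of all tested probes had every no AAA array below every saline array. The difference between the saline and no AAA means was smaller than the SD of the saline arrays for 7 of 7 probes, and that between AAA and saline for 6 of 7. The exception was AU044919, at 2.66 (SE 0.79) against an SD of 2.37, and its difference was 2.29 without AAA 3, under that SD, and 3.61 without saline 2.

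Leaving out saline 1 and saline 2, a choice made after their values were seen, moved both comparisons with saline. AAA minus saline then had a median of 2.96 over the 7 probes, and no AAA minus saline one of -0.40. Igkc (scl0016071.1_62-S) measured 5.55, 4.21, 3.24 and 2.99 in saline 3 to 6, so that all 5 AAA arrays lay above these 4. The same held for 6 of the 7 probes, the Ighm probe labelled mu being the exception, for which AAA 5 and saline 3 were level (both 3.19). The no AAA arrays overlapped saline 3 to 6 for all 7 probes.

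**Figure D2:**
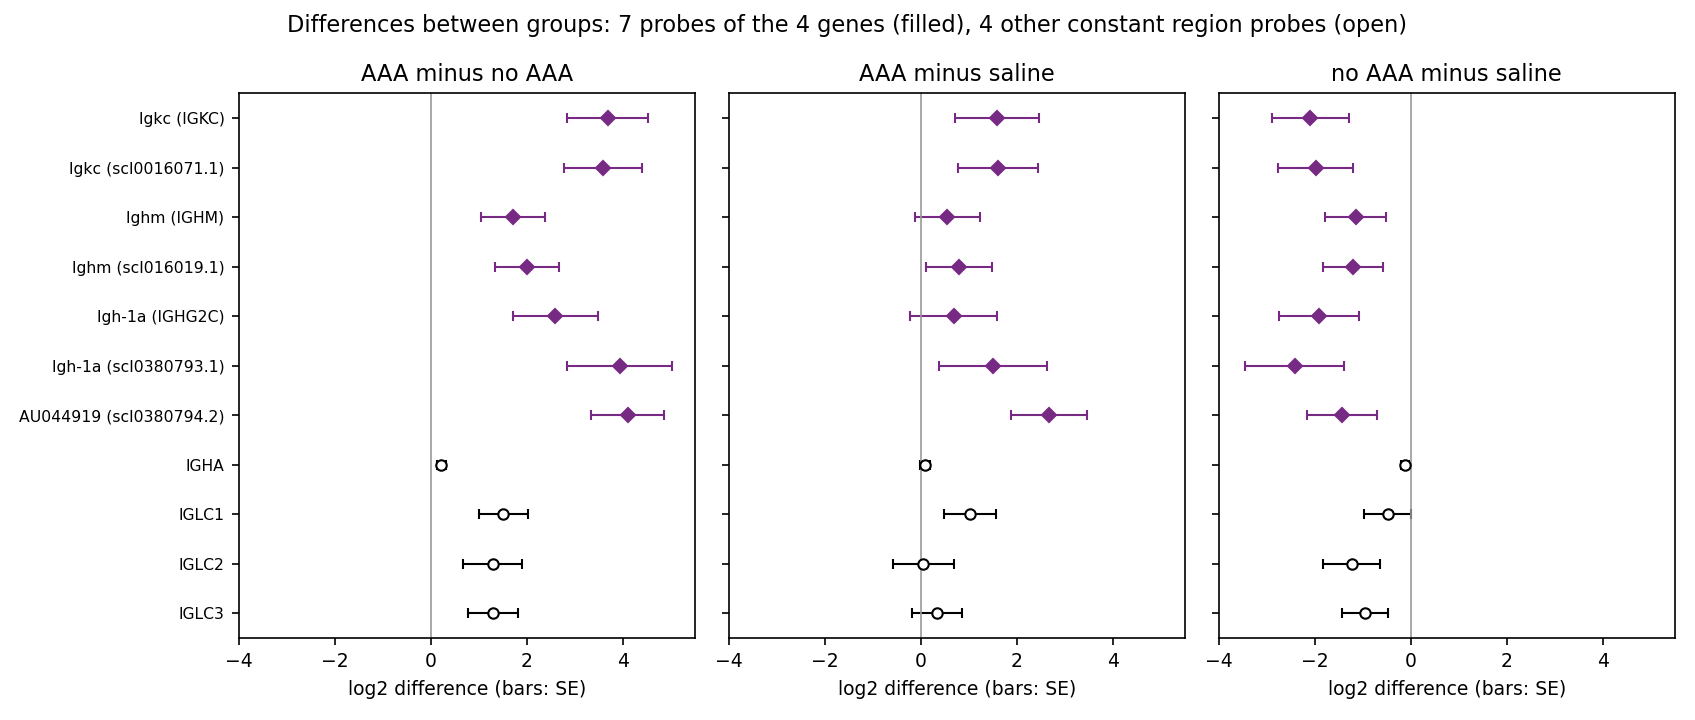
Differences between group means (log2, with SE) of the 7 probes of the 4 genes (filled) and of 4 other constant region probes (open), for AAA minus no AAA, AAA minus saline and no AAA minus saline. The filled points lie between 1.70 and 4.10 in the first panel (for AU044919 and gamma 2C against signals not detected on any no AAA array). The IGHA probe lies near 0 in all 3 panels. The spread of each probe was taken over all groups, so its bars are of like width in the 3 panels.

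Part of the AAA against no AAA comparison could be made on 1 BeadChip, which held all AAA arrays and no AAA 7. On it no AAA 7 lay below all 5 AAA arrays for all 7 probes. The gap between no AAA 7 and the lowest AAA array was 3.70 for Igkc (scl0016071.1_62-S), 1.80 for Ighm (scl016019.1_4-S) and 1.52 for Igh-1a (scl0380793.1_210-S). AU044919 and the gamma 2C probe were not detected on no AAA 7, so no gap is given for them. No AAA 7 was also the lowest of the no AAA arrays for both Igkc probes and both Ighm probes. Without it, with AAA and no AAA on different BeadChips, the mean of AAA exceeded that of no AAA 1 to 6 by 3.40 for Igkc, 1.87 for Ighm and 3.94 for Igh-1a in the same probes.

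The 4 genes did not keep one proportion from mouse to mouse. The log2 level of Igh-1a minus that of Ighm has no meaning as a single value, since 2 probes differ in brightness, but its change from array to array compares the mice. It was 2.46 in AAA 3 and 1.34 in saline 1, and the other 16 arrays lay between -3.31 and -0.37. Background limits the low end, for Igh-1a was not detected on saline 6, no AAA 1 and no AAA 6. On no AAA 2, which gave -3.31, its signal was 155.5, where the lowest detected on that array was 154.2. Among the AAA arrays, which all detected Igh-1a, the difference ran down from AAA 3 through AAA 1 (-0.37), AAA 2 (-1.13) and AAA 4 (-1.77) to AAA 5 (-1.93). AAA 3 and AAA 4, the brightest AAA arrays for Igkc, thus differed in their heavy chains: AAA 3 was the highest AAA array for the gamma chain and AAA 4 for the mu chain.

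AU044919 and the gamma chain were set side by side in the 9 arrays that detected AU044919, since elsewhere its signal was background. AU044919 minus Igh-1a was -6.19 in saline 1 and ran from -2.07 to 1.15 among the AAA arrays. Saline 1 was thus among the 3 brightest arrays for Igh-1a while AU044919 measured 0.57 in it, and saline 2 was bright for both. Within AAA, AU044919 and Igh-1a shared AAA 3 as their highest array and AAA 4 as the next, whereas AAA 5, the lowest for Igh-1a, was not the lowest for AU044919. Igkc minus Ighm ranged from 1.40 to 3.63 in AAA arrays, from 0.09 to 1.08 in no AAA arrays and from 0.52 to 1.98 in saline arrays. The AAA range lay above the no AAA range, with AAA 4 the lowest AAA array and AAA 3 the highest.

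**Figure D3:**
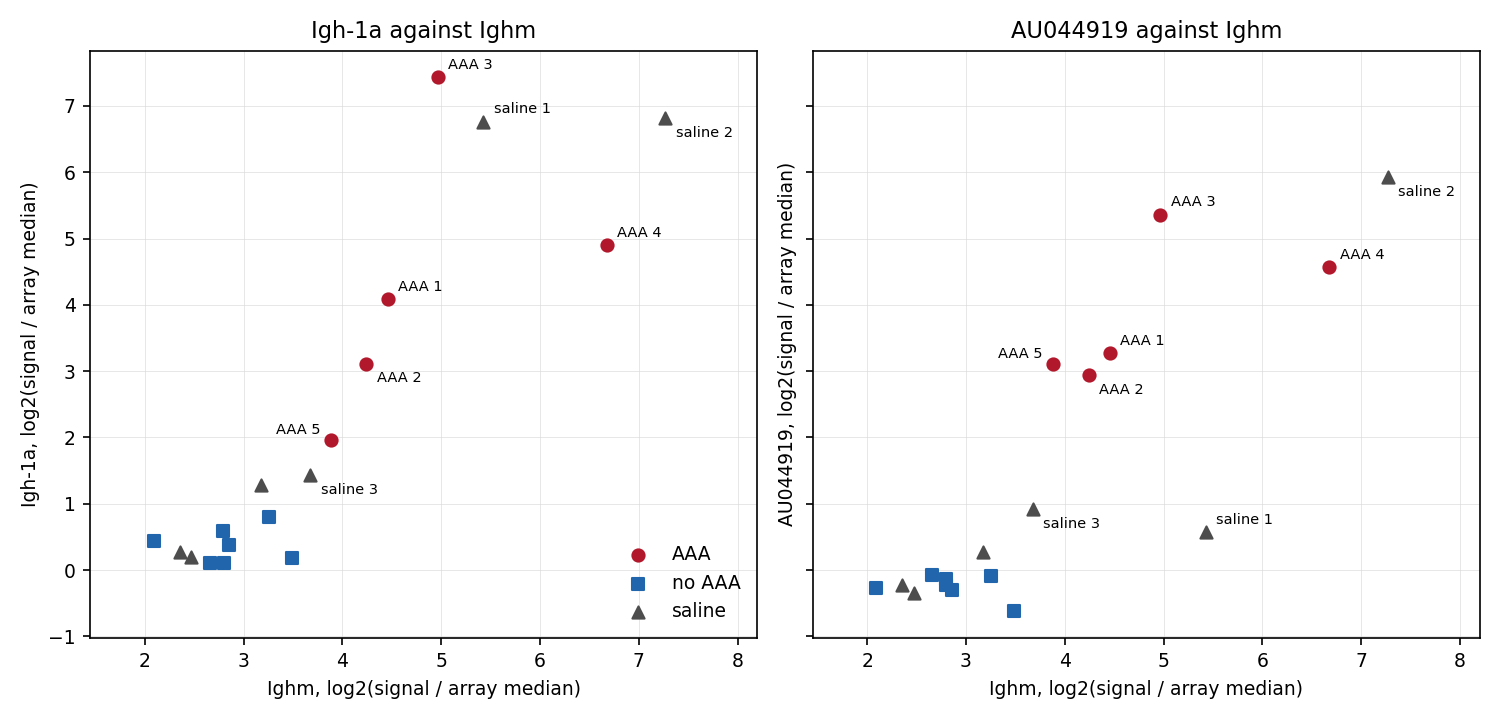
Igh-1a (left) and AU044919 (right) against Ighm, each as log2 of the signal over the array's median, 1 point per array. AAA 3 and saline 1 lie highest for Igh-1a relative to Ighm, with 2.46 and 1.34 between the levels, and in the right panel saline 1 drops to 0.57.

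The spread between mice was set against the error of the beads. The bead error was 3.06 to 13.7% of the signal, from 16 to 58 beads per probe and array. In 19 of the 21 combinations of probe and group the SD between mice, in log2, was over 1.5 times the largest bead error, which leaves out the variation of labelling and hybridisation. In saline no tested probe varied more than Igh-1a (scl0380793.1_210-S, SD 3.14), and 6 to 19 of the 21434 tested probes varied more than the others of the 7, where the median SD of all tested probes was 0.16. In no AAA the picture was different, for at signals near background the SD of AU044919 (0.19) stood at the median of all probes (0.19) and that of Igh-1a (0.26) above 77.8% of them, whereas Igkc (0.75) and Ighm (0.45) varied more than 99.5% and 96.0% of the probes. The brightest signal of the 7 probes (52452 units) stayed below the brightest on its array (69424).

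The 2 probes of a gene gave like patterns over the 18 arrays. Igkc had r = 0.997 and rho = 0.988 between its probes, Ighm 0.988 and 0.992, and Igh-1a 0.981 and 0.868. These are a description over arrays that share group differences, and the lower rho of Igh-1a comes with a gamma 2C probe that was detected on 8 of 18 arrays.

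The array carries 6 further probes labelled as immunoglobulin constant regions, of which 4 passed the filter and were tested. The delta probe IGHD was detected on 4 arrays and the gamma 1 probe IGHG1 on 0, and neither was tested. The alpha probe IGHA, for the heavy chain of IgA, was detected on all 18 arrays and measured 0.59 ± 0.26 in AAA arrays, 0.38 ± 0.10 in no AAA arrays and 0.50 ± 0.12 in saline arrays. Its AAA minus no AAA difference was 0.21 (SE 0.10, limma adjusted p = 0.137), and that between AAA and saline 0.09 (adjusted p = 0.517). The IGHA signals were 148.5 to 253.5 units, near the lowest detected on an array (125.7 to 159.5), so background limits what these differences show.

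The lambda light chain constants, the minor light chains of mouse antibodies, had higher means in AAA than in no AAA, by 1.28 to 1.51 log2 units, and 1 of the 3 passed the test. How this compares with kappa was not tested. IGLC1 measured 1.37, 2.32, 3.05, 3.60 and 0.97 in AAA 1 to 5. Its no AAA values lay between 0.34 and 1.53 with a median of 0.61, and its saline values between 0.28 and 3.50 with a median of 0.54. Saline 1 (2.28) and saline 2 were again the high saline arrays, and AAA 1 and AAA 5 lay within the no AAA range. IGLC1 rose in AAA against no AAA by 1.51 (SE 0.52, limma adjusted p = 0.047), and was the 1 of the 4 tested probes that passed, where 10.8% of all tested probes were called higher and 8.46% lower. The call was lost with the BeadChip as a fixed (adjusted p = 0.175) or random block (adjusted p = 0.0804), and without any 1 of 11 arrays (saline 3 and 5, no AAA 1, 2, 4, 5, 6 and 7, and AAA 2, 3 and 4), with adjusted p between 0.0507 and 0.131. IGLC1 is itself in the study's lists under the symbol Igl-V1, so that its difference is not independent evidence. IGLC2 differed by 1.28 (SE 0.62, adjusted p = 0.161) and IGLC3 by 1.29 (SE 0.51, adjusted p = 0.087). Against saline 0 of the 4 passed in AAA (adjusted p 0.135 to 0.960), where 30.5% of all tested probes were called higher and 9.22% lower. In no AAA against saline 0 of the 4 passed (adjusted p 0.094 to 0.439), where 35.0% were called higher and 10.1% lower. Without saline 1 and saline 2 the counts were 3 of 4 for AAA against no AAA, with the spread then estimated without these arrays, and 2 of 4 for AAA against saline.

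Variable region probes of the same chains were chosen by label alone, although the study's lists hold some of them. Of 145 kappa variable probes 49 were detected on enough arrays to be tested. Among these 25 were higher and 0 lower in AAA arrays than in no AAA arrays, with a median difference of 1.83, where 10.8% of all tested probes were higher. Against saline 4 of the 49 were higher and 0 lower, with a median of 0.70, where 30.5% of all tested probes were higher. Of 136 heavy variable probes 30 were tested, of which 10 were higher and 0 lower in AAA arrays than in no AAA arrays (median 0.92) and 1 higher than in saline (median 0.52). In no AAA against saline 0 of either kind were higher, and 4 kappa and 0 heavy variable probes were lower. Of all tested probes 35.0% were called higher and 10.1% lower there, so the 4 lower kappa probes are not read as a result. A probe that passed the filter only through the arrays where it is bright had to differ, so the counts describe the probes that passed and not all variable probes.

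Within a group, where the lists made no choice, levels could be correlated over 6 saline and over 7 no AAA arrays, and 30 relations were computed and adjusted together. In saline Igkc and Ighm went together (r = 0.981, exact permutation p = 0.0028, adjusted p = 0.0208; rho = 0.943, exact p = 0.0167, adjusted p = 0.0714), with r = 0.974 over 4 arrays without the 2 farthest in Igkc. Igkc and Cd79b, a signalling chain of the B cell receptor, had r = 0.95 (exact permutation p = 0.0014, the smallest that 6 arrays can give, adjusted p = 0.0208) and rho = 1 (adjusted p = 0.0417), and r = 0.884 without the 2 farthest arrays. Saline 1 and saline 2 were the highest saline arrays for Igkc, Ighm and Cd79b too, so that the r over all 6 rest in part on them. For Igh-1a and IGLC1, where saline 1 and saline 2 form a cluster of their own, and for AU044919, where saline 2 does, no pooled r is given. In no AAA Igkc and Ighm again went together (r = 0.953, exact permutation p = 0.0056, adjusted p = 0.0278; rho = 0.714, adjusted p = 0.240), with r = 0.917 over 5 arrays without the 2 farthest. Igkc and Cd72, a B cell surface receptor, had r = 0.923 (exact permutation p = 0.0050, adjusted p = 0.0278; rho = 0.786, adjusted p = 0.160). Over the 6 no AAA arrays of 1 BeadChip, without no AAA 7, these were 0.913 and 0.851, both with an adjusted p of 0.134. Igkc and Cd79b had r = 0.432 in no AAA (exact permutation p = 0.342, adjusted p = 0.507), and the difference of this r from that in saline was not tested. In no AAA, where Igh-1a was detected in 5 arrays and AU044919 in 0, neither passed with another of the 4 genes. In the 5 AAA arrays no correlation was computed.

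The genes with a symbol of their own that were most like the mean of the 4 genes over the 18 arrays were Cd79b (r = 0.931), Gpr18 (0.887), D6Mit97 (0.885), Slpi (0.876) and Fcrl1 (0.873). In deviations from the group means they were Cd79b (0.948), D6Mit97 (0.819), Gpr18 (0.801), Fcrl1 (0.789) and Tnfrsf13b (0.789). Of these Fcrl1 is a B cell surface protein, Tnfrsf13b a receptor of B cells for survival factors, Slpi a secreted protease inhibitor and Gpr18 a receptor expressed in lymphocytes, while no role is given here for D6Mit97. Symbols were at hand only for the 1547 tested probes that the study had listed, so that other genes could not be named. Among the 50 probes most like the 4 genes, 33 carried an immunoglobulin label, and 37 did so in deviations from the group means, of 84 labelled and tested in all.

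Cd79b was bright in the same 2 saline arrays as the constant region genes. It measured 1.96, 1.40, 2.89, 2.92 and 2.15 in AAA 1 to 5, lay between 0.65 (no AAA 7) and 1.36 in no AAA, and reached 2.76 in saline 1 and 4.40 in saline 2, against 0.91 to 1.64 in saline 3 to 6. The AAA arrays were all above the no AAA arrays, AAA 2 only just, and saline 2 was above them all. AAA minus no AAA was 1.21 for Cd79b (SE 0.44, limma adjusted p = 0.058).

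**Figure D4:**
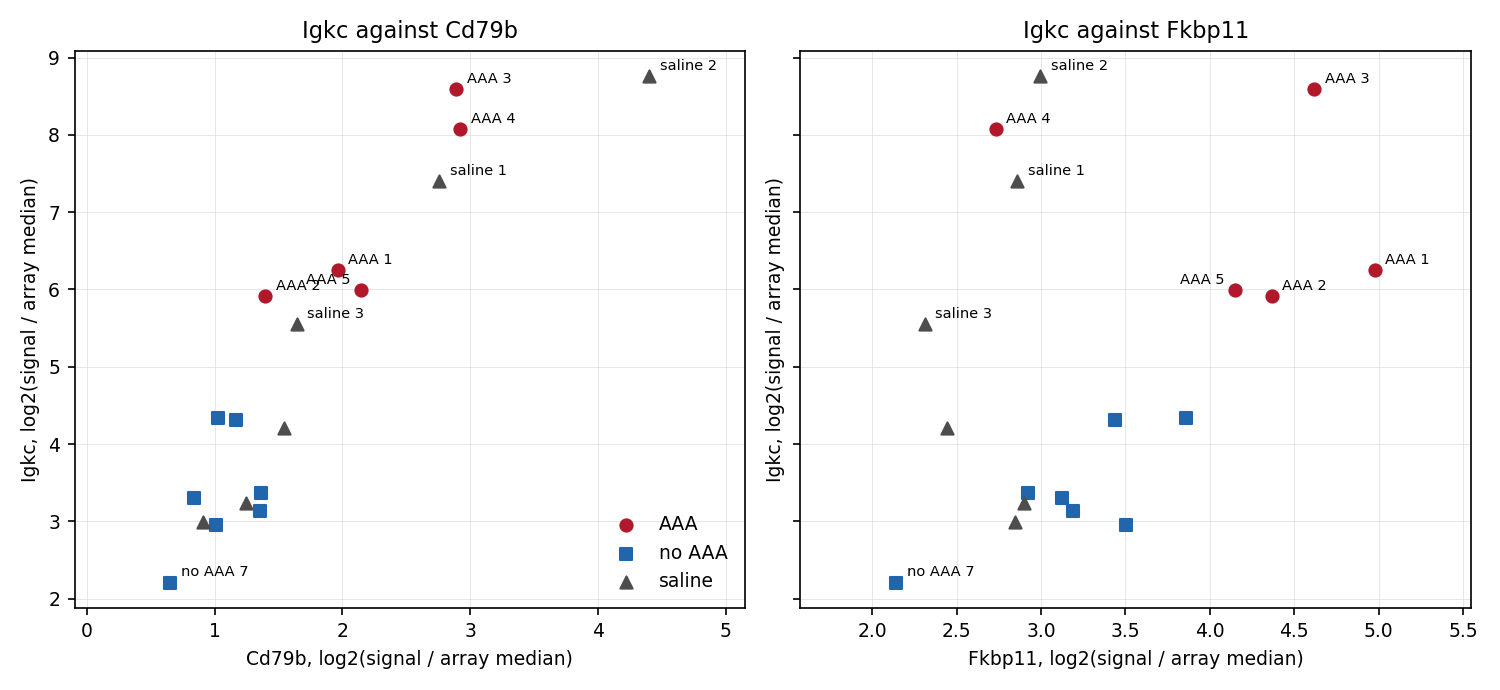
Igkc against the B cell gene Cd79b (left) and against Fkbp11, a chaperone of secretory cells (right), as log2 of the signal over the array's median, 1 point per array. Saline 2 lies top right in the left panel (4.40 for Cd79b), whereas in the right panel saline 1 and saline 2 lie to the left of 4 of the 5 AAA arrays.

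Marker lists of the cells that the aortas could hold are given beside these results, over the genes with a named probe, all of which the study had listed on these arrays, so that their counts are no independent evidence of direction. Of 14 B cell genes 5 could be named, and the sum of their levels (signal over array median) ran from 41.9 to 106 in AAA arrays, 15.0 to 26.4 in no AAA arrays and 11.0 to 46.3 in saline arrays, where saline 2 gave 46.3, saline 1 gave 21.9 and the other 4 at most 15.0. In AAA against no AAA 4 of the 5 were higher and 0 lower (Cd72, Blnk, Btk and Tnfrsf13b, by 1.03 to 1.98), where 10.8% of all tested probes were higher. Against saline the same 4 were higher, where 30.5% of all tested probes were, and Cd79b differed by 0.18 (limma adjusted p = 0.777). In no AAA against saline Cd72 was higher (1.08, limma adjusted p = 0.013), whereas the means of all 7 constant region probes were lower. Of 10 plasma cell genes 3 could be named, with sums of 15.2 to 45.8 in AAA arrays, 8.63 to 21.7 in no AAA arrays and 10.8 to 20.4 in saline arrays, and of these Sdc1, the surface proteoglycan of plasma cells and epithelium, and Fkbp11 were higher in AAA arrays than in no AAA arrays by 0.99 (SE 0.20, limma adjusted p = 0.0024) and 1.00 (SE 0.31, adjusted p = 0.0271). Both were also higher in AAA than in saline, Sdc1 by 1.78 (SE 0.21, adjusted p = 5.56e-06) and Fkbp11 by 1.44 (SE 0.32, adjusted p = 0.00136). Irf4, a transcription factor of plasma cells and other lymphocytes, did not pass in AAA against no AAA (0.36, limma adjusted p = 0.366). It was lower in AAA than in saline (difference -1.03, SE 0.27, adjusted p = 0.0045). In no AAA against saline Sdc1 was higher (0.79, limma adjusted p = 0.0030), Irf4 lower (-1.39, adjusted p = 0.0002) and Fkbp11 did not pass (0.44, adjusted p = 0.224). For plasma cell genes the sum of saline 2 (14.4) lay within the range of saline 3 to 6 (10.8 to 15.7) and that of saline 1 (20.4) above it. The part of B and plasma cell number in the results for the constant region genes was not tested.

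Genes of lymphoid tissue and of other cells moved with some of the same arrays. Those named here had been listed by the study on these arrays, so their tests and counts are no independent evidence of direction. The shares of all tested probes given below cannot be set against genes chosen from such lists. The summed level of 7 chemokines and cytokines of lymphoid tissue was 202 to 476 in AAA arrays, 43.4 to 121 in no AAA arrays and 87.7 to 229 in saline arrays, with the 229 in saline 2 and 98.0 in saline 1. Of the 7 genes 6 were higher in AAA arrays than in no AAA arrays and 0 lower, where 10.8% of all tested probes were higher. Among them were Ccl21a (1.82, SE 0.38, limma adjusted p = 0.0025) and Cxcl13 (1.15, SE 0.36, adjusted p = 0.0276), which guide T cells and B cells within lymphoid tissue. Ccl21b (1.84) and Ccl21c (1.79) were also among them. Probes of Ccl21a and these near-identical copies may not tell them apart, so that the count and the sum may hold 1 signal repeatedly. Against saline 6 of the 7 were higher in AAA, where 30.5% of all tested probes were, and Cxcl13 did not pass (0.17, limma adjusted p = 0.741). Both T cell genes with a name, Cd3d and Thy1, summed to 34.4 to 89.6 in AAA arrays, 11.7 to 41.5 in no AAA arrays and 17.9 to 28.0 in saline arrays. Thy1 made up most of these sums, with a mean log2 level of 5.72 in AAA arrays against 2.02 for Cd3d. Cd3d was not significantly different between AAA and no AAA (1.02, SE 0.38, adjusted p = 0.069), and Thy1, which fibroblasts also carry, was higher by 1.23 (SE 0.25, adjusted p = 0.0024).

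Receptors for antibodies are the partners of the IgG chains on macrophages and other leukocytes. Of 8 such genes 5 could be named, all listed by the study on these arrays, so their count is no independent evidence of direction. In AAA arrays 5 of 5 were higher than in no AAA arrays and than in saline, 0 lower. Of all tested probes 10.8% and 30.5% were called higher, but these shares cannot be set against genes chosen from such lists. The 5 genes are named next. They were the Fc gamma receptors Fcgr1 (1.57, SE 0.22), the inhibitory Fcgr2b (1.23, SE 0.20), Fcgr3 (1.20, SE 0.25) and Fcgr4 (1.88, SE 0.30), and their signalling chain Fcer1g (1.5, SE 0.38), with limma adjusted p values between 0.00027 and 0.0087 against no AAA. Their summed level was 73.4 to 314 in AAA arrays, 36.3 to 111 in no AAA arrays and 35.0 to 61.6 in saline arrays, and saline 1 (40.8) and saline 2 (60.6), bright for the constant region genes, lay within the range of the other saline arrays and below all AAA arrays.

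The vessel wall and the fat around it differed between the groups too. The genes named for both were ones the study had listed on these arrays, so their tests and counts are no independent evidence of direction. The 2 named smooth muscle genes of 8, Acta2 and Cald1, summed to 16.8 to 37.2 in AAA arrays, 46.2 to 69.0 in no AAA arrays and 18.9 to 28.0 in saline arrays. Both were lower in AAA than in no AAA, by 1.12 (SE 0.23, limma adjusted p = 0.0026) and by 1.04 (SE 0.15, adjusted p = 0.0003). AAA minus saline was 0.22 (limma adjusted p = 0.498) and 0.21 (adjusted p = 0.300). No AAA was higher than saline, by 1.34 (limma adjusted p = 0.0001) and 1.25 (adjusted p = 3.8e-06). The 6 named white fat genes of 8 summed to 349 to 569 in AAA arrays, 190 to 455 in no AAA arrays and 702 to 1018 in saline arrays. In AAA 6 of 6 were lower than in saline, and in no AAA 5 of 6 were. Of all tested probes 9.22% and 10.1% were called lower, shares that cannot be set against genes the study had listed. Against no AAA 2 of the 6 were higher in AAA and 0 lower, where 10.8% of all tested probes were higher. These 2 were Lpl, a lipase of triglyceride uptake, by 0.75 (SE 0.16, limma adjusted p = 0.0036) and Cebpa, a transcription factor of fat cells, by 0.87 (SE 0.26, adjusted p = 0.0236). Saline 1 (757) and saline 2 (857) lay within the range of the other saline arrays for fat, and their smooth muscle sums were 28.0 and 22.1, against 18.9 to 25.0. The part of these tissues in the results for the constant region genes was not tested.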

How the data were processed

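Whole aortas of 18 mice were measured on Illumina Mouse Sentrix-6 BeadChips, 1 mouse per array. The authors used BeadStudio 2 to summarise the beads of each probe, and deposited the average signal intensity, not normalised, with its bead error in the same intensity units, a count of beads and a detection score, a fraction of which values over 0.95 were taken as detected. Of the columns 72 were used and 72 others were not. Probe IDs on more than 1 line were averaged, except 4 bacterial controls, which were dropped. The deposited ratio table was left aside because 12 of 18 columns matched a different array.

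Signals were divided by the array median and taken as log2. Probes detected on at least 5 of 18 arrays were fitted with limma 3.58.1 in R 4.3.3 (3 group means, eBayes with trend, Benjamini-Hochberg), tested on simulated data first. Exact permutation tests used scipy 1.17.1. The number of arrays limits the precision. Members and lists were chosen with earlier results of these data known. Named are all probes of the 4 genes, the other labelled constant probes, the named genes of the marker lists, and the 5 symbols most like the 4 genes, each gene by its brightest probe. Bounds set the mean of the brighter group against the lowest detected signal of each array of the other. Alternatives covered scaling, background, filter, BeadChip and replicate blocks, array weights, the methods' t-test and single arrays left out. No probe sequences were used here.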

Additional observations from a re-analysis of the deposited data

Results flagged for a closer look

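Of 33 sets of values (11 probes in 3 groups) searched for an array far from the rest of its group, 2 held one, both of AU044919, and chance gives about 1 in 20. Saline 2 was the highest of 6 saline arrays for AU044919 at 5.93, and its gap to the nearest, saline 3 at 0.92, took 0.797 of the range of the group. No AAA 2 was the lowest of 7 no AAA arrays for AU044919 at -0.62, with a gap of 0.595 of the range to the nearest at -0.30, and the probe was not detected on any no AAA array.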

How the results depend on the processing

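The medians over the 7 probes kept their direction in every alternative. With 1 array left out, AAA minus no AAA (3.59) ran from 3.15 without AAA 3 to 3.86 without AAA 2, AAA minus saline (1.51) from 0.75 without AAA 3 to 2.28 without saline 2, and no AAA minus saline (-1.91) from -2.27 without saline 6 to -1.31 without saline 2. Without saline 1 and saline 2 (chosen after seeing the data) AAA minus saline moved to 2.96 and no AAA minus saline to -0.40. The replicate numbers do not pair the mice, since same-numbered arrays correlated from -0.19 to 0.29 in their deviations. With a replicate block the medians were 3.12 (AAA minus no AAA), 1.22 (AAA minus saline) and -1.79 (no AAA minus saline), and the count of other constant region probes called in AAA against no AAA went to 0.

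That count (1, IGLC1) was also 0 with quantile normalization, no filter, the BeadChip as a fixed or random block, array weights and the methods' t-test after Benjamini-Hochberg, 2 with only the 2 groups compared, and 3 without saline 1 and saline 2. It ran from 0 to 3 with 1 array left out, 0 without any 1 of 10 arrays and 3 without saline 2. Against saline, AAA (0) gave 0 to 1, 1 without saline 2 and 2 without both saline arrays, and no AAA (0) gave 0 to 1, 1 without saline 6. The cause was not tested.

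Differences near 0 changed sign. With 1 array left out, AAA minus saline ran from -0.0762 (without AAA 3) to 1.33 for the Igh-1a probe labelled gamma 2C, from -0.0160 to 0.14 for IGHA, from -0.33 to 0.67 for IGLC2 and from -0.0263 to 0.84 for IGLC3. IGLC2 was -0.10 with quantile normalization and with the replicate block. Without saline 1 and saline 2, no AAA minus saline was 0.0153 for the Ighm probe labelled mu and 0.34 for IGLC1.

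Without the 2 farthest arrays 0 of the 7 saline and 0 of the 2 no AAA correlations passed, over 4 and 5 arrays. The smallest exact p that 4 arrays can give is 0.0417 and that of 5 is 0.00833, so that this loss says nothing of the relations. Without no AAA 7, 0 of the 2 passed in no AAA. Without the 2 farthest, r in saline turned to -0.198 for Igkc with Cd72, -0.213 with Ccl21a, -0.938 with Fkbp11 and -0.777 with Acta2. In no AAA it turned to -0.177 for Igkc with Igh-1a, 0.142 for Ighm with AU044919 and -0.712 for Igkc with Ccl21a. Without no AAA 7, Igkc had r = -0.0654 with Cd79b, -0.483 with Ccl21a, -0.0613 with Cxcl13 and -0.255 with Cidec. Background inferred by limma from detection scores gave a corrected median above the deposited one on 11 arrays, so normexp with controls read from those scores (chosen after seeing the data) took its place, with medians of 3.86, 1.69 and -2.17. Signals near background limit Igh-1a and AU044919 in no AAA.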
